A study of Mus musculus with 147 samples.

Results

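Prospermatogonia are the fetal male germ cells that have left the cell cycle and rest in the seminiferous cords until after birth. Here male germ cells of E18.5 were compared with those of E16.5 (E, embryonic day), as cells sorted by the gate called BVSC. They are 334 of 11598 wild-type cells that passed the filter on cells, out of 13032 cells in all, and were chosen by their names in the deposited table of cells: wild type, gate BVSC, more than 2000 genes and 10000 to 1000000 unique molecular identifiers (UMIs) per cell. E16.5 gave 95 and 96 cells in replicates 1 and 2, and E18.5 gave 72 and 71. In the study, germ cells in mitotic arrest reach up to E16.5 and prospermatogonia begin on that day. The E16.5 cells may thus be of more than 1 stage. Nanos2, a marker of the arrest stage in the study, had UMIs in 11 and 31 of the E16.5 cells and in 4 and 0 of the E18.5 cells. Cells were not assigned to stages here, and the part of a changed mix of stages in the results was not tested.

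The fetuses came from males with the Blimp1-mVenus and Stella-ECFP (BVSC) transgenes and C57BL/6 females, and at both days the cells positive for Stella-ECFP, a reporter driven by Dppa3, were collected as germ cells. Cells of the gate Negative are the gonadal cells without the reporter, 48 and 48 at E16.5 and 24 and 22 at E18.5. Fewer embryos or gonads went into a replicate at E18.5 than at E16.5, per the study's list of samples, and the embryo of each cell is not known. Each replicate was sequenced as 1 library of these cells, so that library, pool and replicate cannot be told apart. At E16.5 the gonads had been cut into a proximal, a central and a distal part, which were summed here. Negative cells were then in libraries of their own, whereas at E18.5 both gates shared a library. The same 96 well barcodes served every library, so that the replicates shared 96 barcodes at E16.5 and 72 at E18.5.

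In these days the germ cells neither divide nor enter meiosis. They are known for writing DNA methylation anew over a genome that had lost it, with the methyltransferase DNMT3A and its cofactor DNMT3L, and for the PIWI-interacting RNA (piRNA) pathway, in which PIWI proteins loaded with small RNAs find retrotransposons, and the nuclear member PIWIL4 directs methylation to them.

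Germ cell transcripts were far higher in BVSC than in Negative cells, though not absent from the latter. All 334 cells had UMIs of both Ddx4, an RNA helicase of germ cells, and Dazl, an RNA-binding protein of germ cells. Both were also counted in 31 of 48 and 17 of 48 Negative cells at E16.5 and in 21 of 24 and 18 of 22 at E18.5. Presence of a UMI thus did not separate the gates, and the level of the pools did. Ddx4 lay at 466 and 475 CPM at E16.5 and 392 and 324 CPM at E18.5 (CPM, UMIs per 1000000 UMIs of the pool) in BVSC cells, and at 59.7 and 13.5 CPM at E16.5 and 17.1 and 34.6 CPM at E18.5 in Negative cells. Single cells were not all separated by level. The highest Negative cell of E16.5 had 470.7 CPM of Ddx4 in replicate 1 and 464.1 CPM in replicate 2. The medians of the BVSC cells of that day were 475 and 493.2 CPM. Of the markers that the study used for the quiescent stage, Dnmt3l, Tspan8, Zxdc, Krt18 and Tie1 were counted in every BVSC pool. Krt18 was higher in Negative cells at E16.5. The proliferation marker Mki67 stood at 7.63 and 22 CPM at E16.5 and 31.1 and 10.3 CPM at E18.5 in BVSC cells. In Negative cells it was at 344 and 229 CPM at E16.5 and 319 and 116.8 CPM at E18.5.

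The pools held 22277443 and 24725057 UMIs at E16.5 and 24480553 and 27539281 UMIs at E18.5. A cell had a median of 244935 and 248266 UMIs at E16.5 and of 346563 and 382885 UMIs at E18.5, with 10094 and 10242 genes against 11347 and 11932 genes. Steroid enzymes of the Leydig cell, the androgen-producing cell between the cords, were present in 1 library of each day: Cyp17a1 was at 153 and 5.9 CPM at E16.5 and 1.06 and 286 CPM at E18.5 and Insl3, a Leydig cell hormone, at 7.77 and 0 CPM at E16.5 and 0 and 29.8 CPM at E18.5. The 7 Leydig cell markers summed to 559 CPM in replicate 1 and 77.2 CPM in replicate 2 of E16.5 and to 77 CPM in replicate 1 and 1092 CPM in replicate 2 of E18.5. After thinning to 50000 UMIs per cell, Cyp17a1 had a UMI in 95.6% and 16.7% of the E16.5 cells and in 0% and 100% of the E18.5 cells, of which 0 of 70 cells allows a share of up to 4.29%. The Negative cells of replicates 1 and 2 had it in 0% and 100% at both days (0 of 44 cells allows up to 6.82% at E16.5 and 0 of 19 up to 15.8% at E18.5). The limits cover counting error only. In sums over cells, fewer cells of a type and less RNA per cell cannot be told apart. High Leydig transcripts were thus in 1 library of each day. All 7 markers had log2 fold changes above 0, with a median of 0.60 against 0.03 over all genes. With 1 high library in each day, a lack of calls cannot show equal levels. Called between the days were 0 of the 7 markers by edgeR or DESeq2, with 0 at an unadjusted p under 0.05. Leaving out a library changed this: without replicate 1 of E16.5, 6 of 7 were called higher at E18.5, and without replicate 2 of E18.5, 3 were called lower, among them Cyp17a1 with a log2 fold change of -6.45 (adjusted p = 0.00960). The E17.5 pools are given for orientation and were outside the test. Replicate 1 of that day stood apart, with the Sertoli cell hormone Amh at 134.6 CPM against 6.68 CPM in replicate 2. Its 15 Sertoli cell markers summed to 1582 CPM, against 453 CPM in replicate 2. In an earlier clustering of these data none of its BVSC cells took a germ cell type. This replicate gives the first value of each pair quoted for E17.5 below.

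**Figure D1:**
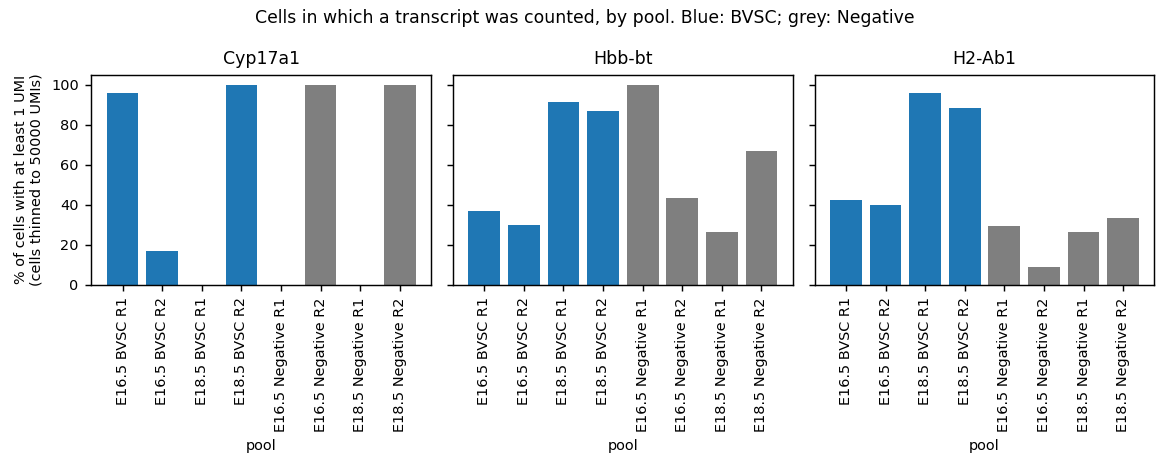
Percent of cells (vertical axis) with at least 1 UMI of Cyp17a1, Hbb-bt or H2-Ab1 after thinning each cell to 50000 UMIs, for each pool of BVSC (blue) and Negative (grey) cells. Cyp17a1 splits the pools by library within each day, whereas Hbb-bt and H2-Ab1 split the BVSC pools by day.

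Between E16.5 and E18.5, 661 genes rose and 1101 fell in the BVSC cells among 21493 genes tested, at a false discovery rate of 0.05 in edgeR's quasi-likelihood test of 2 pools against 2. Without replicate 2 of E16.5, 396 rose and 625 fell. The main counts are 3.08% called higher and 5.12% called lower, 8.2% in all. They are the background for the counts of list members below. With only genes of at least 5 CPM tested they were 7.89% and 8.65%. The test measures the spread between these pools, which may be technical in part. Among genes whose average log2 CPM reached 5 and that were higher in BVSC than in Negative cells on their high day, the largest fall was that of Tmc2, a channel protein best known from hair cells. The largest rises were those of Ttc9b, a tetratricopeptide protein, and Rhox9, an X-linked homeobox gene. A fit of all BVSC pools from E14.5 to E18.5, without replicate 1 of E17.5, called fewer genes between the same days, 0.536% higher and 2.31% lower. It is named the fit of all days here.

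The split between rises and falls depends on how the pools are scaled. The normalization factors (TMM) were 0.917 and 0.921 at E16.5 and 1.08 and 1.10 at E18.5, so that a gene at the same CPM on both days has a log2 fold change of about -0.24. With library size alone, 1163 genes rose and 496 fell, 70.1% of the calls upward instead of 37.5%, and the median of all genes was 0.27 instead of 0.03. The 2 scalings shared 1157 called genes, none of them with opposite signs.

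Of 13 genes of germ cell identity tested, 8 fell and 0 rose, with a median log2 fold change of -0.81 against 0.03 over all genes, and 5 fell with library size alone or without replicate 2 of E16.5. Dnd1, an RNA-binding protein that germ cells need to survive, measured 486 and 429.6 CPM at E16.5 and 149 and 106.9 CPM at E18.5 (log2 fold change -2.08, standard error 0.18, adjusted p = 0.00143). Dppa3, which shields the early embryo from loss of methylation and whose promoter drives the sorting reporter, was at 124.6 and 272 CPM at E16.5 and 80.5 and 66.3 CPM at E18.5 (log2 fold change -1.67, standard error 0.32, adjusted p = 0.0151). It had been at 714 and 1151 CPM at E15.5. The lowest E16.5 pool of either gene was above the highest E18.5 pool. Pools of the 2 days did not overlap for 55.7% of all genes tested. Tex14, a component of the bridges between germ cells, was at 157 and 259.9 CPM at E16.5 and 98.7 and 71.9 CPM at E18.5 (log2 fold change -1.53, standard error 0.26, adjusted p = 0.0102). Nanos2, an RNA-binding protein that keeps male germ cells out of meiosis, had 88 and 205 UMIs at E16.5 and 4 and 0 UMIs at E18.5 (adjusted p = 0.0151), after 38.8 and 95.7 CPM at E15.5. Ddx4 fell (log2 fold change -0.64, standard error 0.14, adjusted p = 0.0236), and Dazl gave a log2 fold change of -0.045 (adjusted p = 0.865), which with library size alone was 0.20 (adjusted p = 0.284). The calls of Dppa3, Ddx4 and Nanos2 were lost without replicate 2 of E16.5, and that of Ddx4 also with library size alone.

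Genes of the pluripotency network were mixed. Of 19 tested, 3 fell, 0 rose and the median was -0.19, with 3 lower and 1 higher with library size alone. Among all genes tested 5.12% fell. Pou5f1, the factor OCT4, was at 117.7 and 106.01 CPM at E16.5 and 51.2 and 35.2 CPM at E18.5 (log2 fold change -1.61, standard error 0.25, adjusted p = 0.00735). Utf1, a chromatin protein of stem and germ cells, was at 649 and 607 CPM at E16.5 and 402 and 295 CPM at E18.5 (log2 fold change -1.09 (adjusted p = 0.00626)) and Dppa4, a chromatin protein of pluripotent cells, at 591 and 553 CPM at E16.5 and 372 and 356 CPM at E18.5 (log2 fold change -0.90 (adjusted p = 0.00511)). All 3 were higher in both E16.5 pools than in either E18.5 pool, and pools did not overlap for 55.7% of all genes tested.

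**Figure D2:**
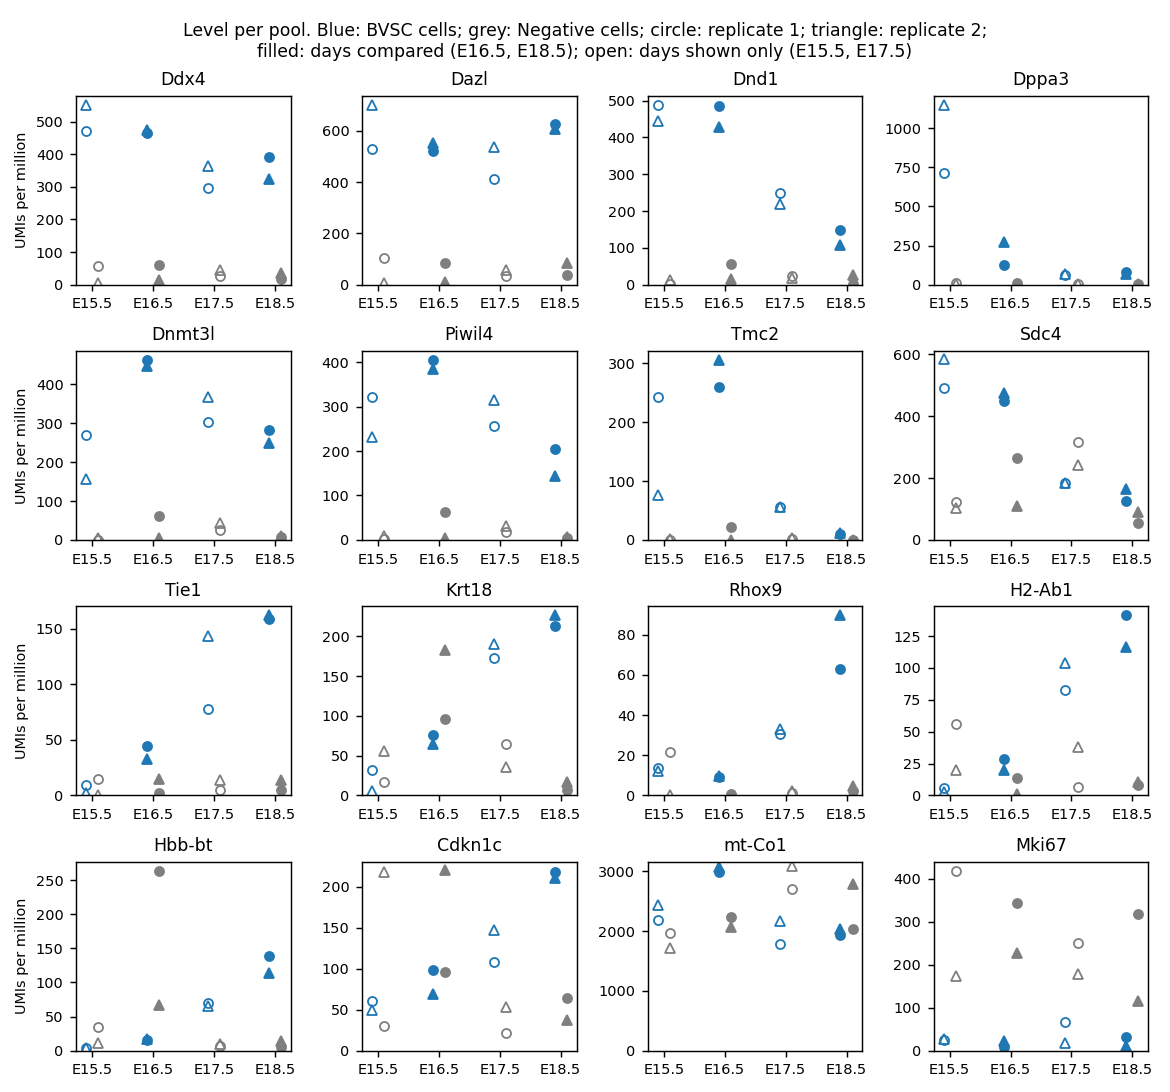
CPM of 16 genes (vertical axes) in each pool by embryonic day, in BVSC cells (blue) and Negative cells (grey), with filled symbols for the days compared and open ones for E15.5 and E17.5. Dnd1, Piwil4 and Tmc2 are lower and Tie1, Krt18, Rhox9 and H2-Ab1 higher in both E18.5 pools than in both E16.5 pools, with the E17.5 pools between them.

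Of 12 genes of DNA methylation and demethylation tested, 2 fell and 0 rose, where 5.12% of all genes fell. The falls were those of Dnmt3l and Dnmt3a. Dnmt3l, which stimulates the de novo methyltransferases, lies on chromosome 10 from 78041947 to 78063622 of mm10 and was at 462 and 448 CPM at E16.5 and 282 and 248 CPM at E18.5 (log2 fold change -1.02, standard error 0.13, adjusted p = 0.00475). At E15.5 it had been at 269 and 156 CPM and at E17.5 at 303 and 368 CPM. Dnmt3a, the de novo methyltransferase itself, was at 546 and 550.0 CPM at E16.5 and 428 and 383 CPM at E18.5 (log2 fold change -0.68, standard error 0.12, adjusted p = 0.0125).  Dnmt3c, the methyltransferase of rodents for young retrotransposons, was at 5.66 and 6.96 CPM at E16.5 and 4.45 and 3.12 CPM at E18.5 (log2 fold change -0.98 (adjusted p = 0.327)), and Tet1, an enzyme that oxidises methylcytosine, at 21.5 and 30.1 CPM at E16.5 and 24.1 and 29.7 CPM at E18.5 (log2 fold change -0.19 (adjusted p = 0.787)). All 12 fold changes were below 0, with a median of -0.42. With library size alone the call of Dnmt3a was lost and that of Dnmt3l remained, and in the fit of all days both calls were lost.

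Of 24 genes of the piRNA pathway tested, 13 fell and 0 rose, with a median of -0.66, where 5.12% of all genes fell. Falls numbered 6 with library size alone and 8 in the fit of all days. Piwil4, the nuclear PIWI protein, on chromosome 9 from 14696230 to 14740733, was at 405 and 384 CPM at E16.5 and 204 and 144.3 CPM at E18.5 (log2 fold change -1.42, standard error 0.18, adjusted p = 0.00425), after 255 and 315 CPM at E17.5. Morc1, an ATPase that acts in silencing of retrotransposons, was at 306 and 330.5 CPM at E16.5 and 180.1 and 159 CPM at E18.5 (log2 fold change -1.15, standard error 0.15, adjusted p = 0.00454). Mov10l1, the helicase that feeds piRNA precursors into processing, was at 462 and 382 CPM at E16.5 and 238 and 216 CPM at E18.5 (log2 fold change -1.14, standard error 0.15, adjusted p = 0.00474). For these 3 genes no E18.5 pool reached an E16.5 pool, where 55.7% of all genes tested had no overlap in 1 direction or the other. Tdrd5, a Tudor domain protein, was at 137.2 and 159.6 CPM at E16.5 and 85 and 58.8 CPM at E18.5 (log2 fold change -1.29 (adjusted p = 0.0118)) and Asz1, an ankyrin protein of the mitochondrial surface in this pathway, at 248 and 292 CPM at E16.5 and 155 and 164 CPM at E18.5 (log2 fold change -1.01 (adjusted p = 0.00735)). Piwil1, best known from meiotic cells, was low at both days, at 32 and 34.4 CPM at E16.5 and 13.7 and 15.2 CPM at E18.5 (log2 fold change -1.45 (adjusted p = 0.0207)), and its call was lost without replicate 2 of E16.5. Piwil2, the cytoplasmic partner of Piwil4, was at 347 and 332 CPM at E16.5 and 299 and 205 CPM at E18.5 (log2 fold change -0.67 (adjusted p = 0.0547)) and did not pass the threshold. Leaving out 1 pool at a time gave between 10 and 15 falls in this list, the fewest without replicate 2 of E16.5.

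Sequences before the start of genes on both sides are shown because their content of CpG, the dinucleotide that is methylated in these cells, had different medians in rises and falls. RefSeq promoters of GRCm38.p6 were at hand for 15368 of the 21493 genes, and of the starts listed for a gene the first was taken (2826 genes had more than 1). The starts of RefSeq and of the GENCODE annotation, which gave the gene positions, lay within 250 bases of each other for 79.2% of the genes. In the 250 bases before the RefSeq start, genes that fell had a median of 15 CpG (841 genes), genes that rose a median of 7 (468 genes) and all tested genes a median of 12. No CpG was present in 2.50% of the promoters of genes that fell, 5.77% of those that rose and 3.47% of all. The median G and C content was 57.6%, 54.4% and 57.2%. In the piRNA pathway the median was 17 CpG (17 of 24 genes) and in the Rhox family 4 (24 of 31 genes). These are descriptions of sequence, and no methylation was measured. Each sequence is written 5′ to 3′ on the strand of its gene, with every CG in capitals (CG reads the same on both strands). Dnmt3l (chr10:78042037-78042286, plus strand, 5 CpG), Piwil4 (chr9:14740673-14740922, minus strand, 10 CpG) and Mov10l1 (chr15:88982744-88982993, plus strand, 19 CpG) fell, and Tie1 (chr4:118489850-118490099, minus strand, 6 CpG) and Rhox13 (chrX:38120590-38120839, plus strand, 4 CpG) rose. Their RefSeq starts lay 340 bases inside the GENCODE gene for Dnmt3l, 61 for Piwil4, 85 for Mov10l1 and 212 for Tie1. The stretch of Dnmt3l is thus wholly within that gene model and those of the other 3 partly. The start of Rhox13 lay outside its gene model.
Dnmt3l: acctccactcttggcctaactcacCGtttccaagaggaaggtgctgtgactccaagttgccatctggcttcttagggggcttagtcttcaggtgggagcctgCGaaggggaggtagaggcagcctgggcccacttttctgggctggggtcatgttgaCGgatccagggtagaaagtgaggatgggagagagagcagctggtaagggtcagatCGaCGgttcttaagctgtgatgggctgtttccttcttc
Piwil4: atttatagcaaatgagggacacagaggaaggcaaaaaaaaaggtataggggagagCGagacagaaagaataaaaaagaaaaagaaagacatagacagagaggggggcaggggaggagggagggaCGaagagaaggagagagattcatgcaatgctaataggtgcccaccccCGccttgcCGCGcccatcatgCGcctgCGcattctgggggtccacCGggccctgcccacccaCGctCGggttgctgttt
Mov10l1: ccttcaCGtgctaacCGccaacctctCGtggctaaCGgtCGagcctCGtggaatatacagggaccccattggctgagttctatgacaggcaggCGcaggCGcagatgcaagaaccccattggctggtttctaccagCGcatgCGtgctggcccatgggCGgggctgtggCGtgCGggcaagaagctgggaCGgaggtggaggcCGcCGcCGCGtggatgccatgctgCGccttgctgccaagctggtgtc
Tie1: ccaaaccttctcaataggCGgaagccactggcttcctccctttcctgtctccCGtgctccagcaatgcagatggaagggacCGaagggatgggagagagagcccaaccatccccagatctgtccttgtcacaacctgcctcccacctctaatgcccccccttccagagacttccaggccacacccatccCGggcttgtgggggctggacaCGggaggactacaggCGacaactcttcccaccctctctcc
Rhox13: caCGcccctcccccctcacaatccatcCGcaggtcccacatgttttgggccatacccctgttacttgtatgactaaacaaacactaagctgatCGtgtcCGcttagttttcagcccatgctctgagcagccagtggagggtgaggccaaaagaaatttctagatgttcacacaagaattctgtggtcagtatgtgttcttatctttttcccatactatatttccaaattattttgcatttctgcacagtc

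Of 9 tested marker genes of prospermatogonia, 4 rose and 1 fell (Dnmt3l), with a median of 0.89. The list was drawn up in the original work on these same cells and is not independent evidence of its direction. Tie1, a receptor-like kinase best known from endothelium, on chromosome 4 from 118471191 to 118490061, was at 9.65 and 2.32 CPM at E15.5 and at 44.8 and 32.6 CPM at E16.5 and 158 and 162 CPM at E18.5 (log2 fold change 1.80, standard error 0.23, adjusted p = 0.00398). Krt18, a keratin of simple epithelia, was at 76.3 and 64.4 CPM at E16.5 and 213 and 227 CPM at E18.5 (log2 fold change 1.40, standard error 0.18, adjusted p = 0.00454). Myog, the muscle transcription factor myogenin, was at 25.3 and 13.5 CPM at E16.5 and 90.2 and 70.2 CPM at E18.5 (log2 fold change 1.80, standard error 0.34, adjusted p = 0.0141), and Mef2c, a transcription factor that acts with it in muscle, at 36.9 and 53.7 CPM at E16.5 and 109.5 and 111.9 CPM at E18.5 (log2 fold change 1.05, standard error 0.24, adjusted p = 0.03). In these 4 genes every E18.5 pool was above every E16.5 pool (55.7% of all genes tested had no overlap). The call of Mef2c was lost without replicate 1 of E16.5. In the fit of all days the calls of Tie1, Krt18, Mef2c and Dnmt3l were lost and 1 rise was left in this list. At E16.5 Krt18 and Mef2c were higher in Negative than in BVSC cells. In Negative cells Krt18 was at 96.1 and 183 CPM at E16.5 and 6.82 and 17.1 CPM at E18.5. Mef2c was there at 183 and 171 CPM at E16.5 and 97.9 and 35.8 CPM at E18.5. Tspan8, a tetraspanin, was at 175 and 161 CPM at E16.5 and 144.6 and 158 CPM at E18.5 (log2 fold change -0.39 (adjusted p = 0.177)) and Zxdc, a zinc finger protein, at 120.2 and 99.5 CPM at E16.5 and 127.1 and 81.7 CPM at E18.5 (log2 fold change -0.31 (adjusted p = 0.495)). Id4, an inhibitor of differentiation that later marks spermatogonial stem cells, was at 11.2 and 10.6 CPM at E16.5 and 25.1 and 22.8 CPM at E18.5 (log2 fold change 0.89 (adjusted p = 0.138)). All 7 endothelial markers summed to 294 and 251 CPM at E16.5 and 289 and 276 CPM at E18.5, and of them Plvap fell (-1.87 (adjusted p = 0.0244)).

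The leading rises under the same conditions were as follows. Ttc9b was at 9.29 and 6.75 CPM at E16.5 and 92.1 and 62.3 CPM at E18.5 (log2 fold change 3.02, standard error 0.33, adjusted p = 0.00258). Cartpt, the precursor of the neuropeptide CART, was at 18.8 and 12.9 CPM at E16.5 and 88.6 and 143.9 CPM at E18.5 (log2 fold change 2.63, standard error 0.31, adjusted p = 0.00344). Scg5, a chaperone of neuroendocrine secretion, was at 22.5 and 5.26 CPM at E16.5 and 50.7 and 146.5 CPM at E18.5 (log2 fold change 2.58, standard error 0.64, adjusted p = 0.0392). H2-Ab1, a chain of the class II histocompatibility complex, was at 28.5 and 19.5 CPM at E16.5 and 141.3 and 116.5 CPM at E18.5 (log2 fold change 2.18, standard error 0.26, adjusted p = 0.00362), after 5.59 and 2.9 CPM at E15.5 and 82.7 and 103.5 CPM at E17.5. It was carried by 42.2% and 40% of thinned cells at E16.5 and 95.7% and 88.4% at E18.5, against 26.3% and 33.3% of the Negative cells at E18.5, so that most germ cells of E18.5 carried it. Sly, a multicopy gene of the Y chromosome known from spermatids, was at 7.77 and 11.6 CPM at E16.5 and 59.6 and 70.3 CPM at E18.5 (2.50 (adjusted p = 0.00398)), where copies can share reads. Of the other rises in the leading 15, Gm33651, CAAA01118383.1, Trappc6a, C130026I21Rik and Thnsl2 had log2 fold changes of 2.31, 2.19, 2.10, 2.01 and 1.99. The call of Scg5 was lost without replicate 2 of E18.5 and with DESeq2, and in the fit of all days those of Ttc9b, Scg5 and Thnsl2 were lost.

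Both adult beta globins rose, and neither alpha globin passed the test. Hbb-bt, on chromosome 7 from 103812524 to 103813996, was at 15.49 and 17.4 CPM at E16.5 and 138.9 and 114.6 CPM at E18.5 (log2 fold change 2.702, standard error 0.24, adjusted p = 0.00143). Hbb-bs was at 17.3 and 30.3 CPM at E16.5 and 144.3 and 103.3 CPM at E18.5 (log2 fold change 2.14, standard error 0.31, adjusted p = 0.00627). Hba-a1 was at 52.2 and 60.8 CPM at E16.5 and 62.1 and 52.2 CPM at E18.5 (log2 fold change -0.23 (adjusted p = 0.64)) and Hba-a2 at 34.2 and 45.3 CPM at E16.5 and 46.7 and 34.2 CPM at E18.5 (log2 fold change -0.22 (adjusted p = 0.72)). The 2 beta genes are close copies that can share reads. Of thinned cells, 36.7% and 30% had Hbb-bt at E16.5, and 91.4% and 86.96% at E18.5, with medians of 118.1 and 75.6 CPM per cell at E18.5, against 26.3% and 66.7% of the Negative cells at E18.5. The Negative cells, which at E18.5 shared the libraries, were at 264 and 66.4 CPM at E16.5 and 5.46 and 14.2 CPM at E18.5. Alas2, the first enzyme of heme synthesis in red cells, was at 1.84 and 1.01 CPM at E16.5 and 2.45 and 1.34 CPM at E18.5.

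The Rhox family holds homeobox genes in a cluster on the X chromosome that are expressed in reproductive tissues. More of them rose than fell, where 3.08% of all genes rose and 5.12% fell. Of 31 genes tested, 16 rose and 2 fell, with a median of 1.44, with library size alone 21 rose and 1 fell, and in the fit of all days 8 rose and 0 fell. Rhox9 was at 9.11 and 9.87 CPM at E16.5 and 63.1 and 89.6 CPM at E18.5 (log2 fold change 2.76, standard error 0.30, adjusted p = 0.00255) and Rhox6, its neighbour in the cluster, at 11.8 and 12.4 CPM at E16.5 and 75.9 and 55.4 CPM at E18.5 (log2 fold change 2.20, standard error 0.29, adjusted p = 0.00511). They were already at 30.5 and 33.2 CPM and 39.6 and 47.2 CPM at E17.5. Rhox13 was at 41.1 and 57.1 CPM at E16.5 and 128.7 and 121.97 CPM at E18.5 (log2 fold change 1.11, standard error 0.23, adjusted p = 0.0209). Rhox12 had 20 and 33 UMIs at E16.5 and 495 and 475 UMIs at E18.5 (log2 fold change 3.82 (adjusted p = 0.00474)). Every Rhox4 gene from Rhox4a to Rhox4g rose, with Rhox4a at 23.6 and 23.2 CPM at E16.5 and 80.6 and 109.4 CPM at E18.5 as the highest of them and Rhox4d at 7.95 and 8.7 CPM at E16.5 and 36.9 and 38.3 CPM at E18.5 as the lowest. The Rhox2, Rhox3 and Rhox4 genes are tandem copies among which reads can be shared, so that they are not independent observations. Rhox10, which acts in the germ line, fell from the highest level of the family, at 363 and 345 CPM at E16.5 and 247 and 231 CPM at E18.5 (log2 fold change -0.81, standard error 0.14, adjusted p = 0.00959), and Rhox5, known from Sertoli cells, was at 169.6 and 185 CPM at E16.5 and 138.03 and 109.8 CPM at E18.5 (log2 fold change -0.76, standard error 0.18, adjusted p = 0.0344). Rhox11 was not tested, at 0 and 0.0809 CPM at E16.5 and 0.858 and 0 CPM at E18.5. Leaving out 1 pool at a time gave between 11 and 18 rises, the fewest without replicate 2 of E18.5.

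**Figure D3:**
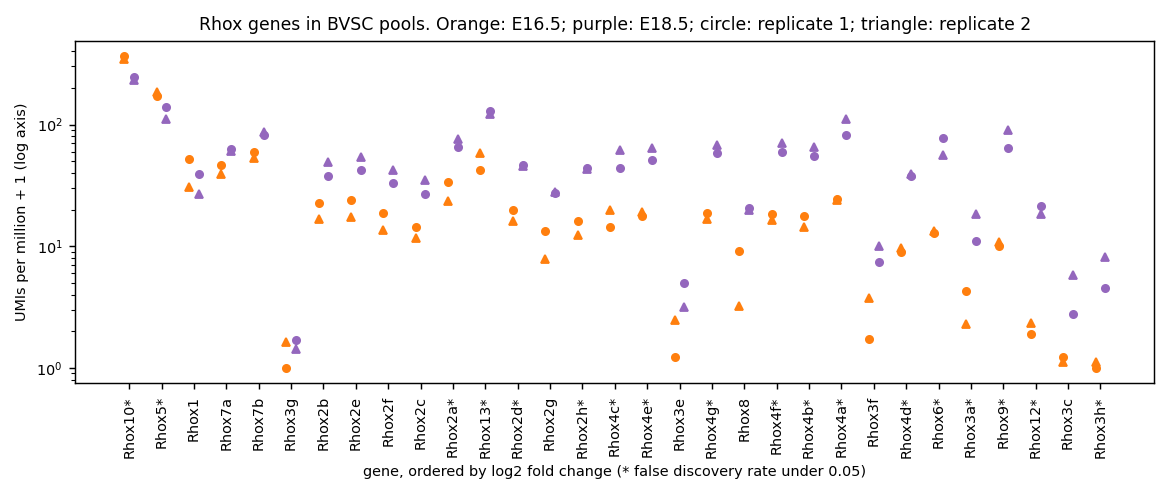
CPM plus 1 (vertical log axis) of the 31 Rhox genes tested in the BVSC pools of E16.5 (orange) and E18.5 (purple), ordered by log2 fold change. Most genes are higher in both E18.5 pools, and Rhox10 and Rhox5 at the left are lower.

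Transcripts of the mitochondrial genome and of ribosomal proteins took a smaller share of the UMIs at E18.5. The 13 mitochondrial transcripts summed to 20794 and 20861 CPM at E16.5 and to 14556 and 15414 CPM at E18.5, and 10 fell, 0 rose (9 fell with library size alone and 6 in the fit of all days), with a median of -0.67. mt-Co1, a subunit of cytochrome oxidase, was at 2989.9 and 3075 CPM at E16.5 and 1938 and 2041 CPM at E18.5 (log2 fold change -0.85, standard error 0.075, adjusted p = 0.00143). In Negative cells these transcripts summed to 17343 and 17710 CPM at E16.5 and 16884 and 20362 CPM at E18.5. The 80 ribosomal protein genes summed to 60136 and 61792 CPM at E16.5 and 51409 and 46171 CPM at E18.5. Of these, 67 fell and 0 rose, with a median of -0.57, but 20 fell with library size alone, 10 in the fit of all days and 44 without replicate 2 of E16.5. Rpl41 was at 854 and 939 CPM at E16.5 and 630.4 and 511 CPM at E18.5 (log2 fold change -0.89 (adjusted p = 0.00613)) and Rps4x at 708 and 706 CPM at E16.5 and 508 and 417 CPM at E18.5 (log2 fold change -0.86 (adjusted p = 0.007)). Many ribosomal protein genes have processed copies that can share reads. Genes of glycolysis did not fall as a group. Among 19 tested, 3 fell and 0 rose, but the median was 0.15, with 12 fold changes above 0 and 7 below. With library size alone 3 fell and 1 rose. Eno1, an enolase, was at 732 and 661 CPM at E16.5 and 453 and 465 CPM at E18.5 (log2 fold change -0.85 (adjusted p = 0.00533)). Pgam1 and Pkm changed by -0.74 (adjusted p = 0.0126) and -0.67 (adjusted p = 0.0101).

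**Figure D4:**
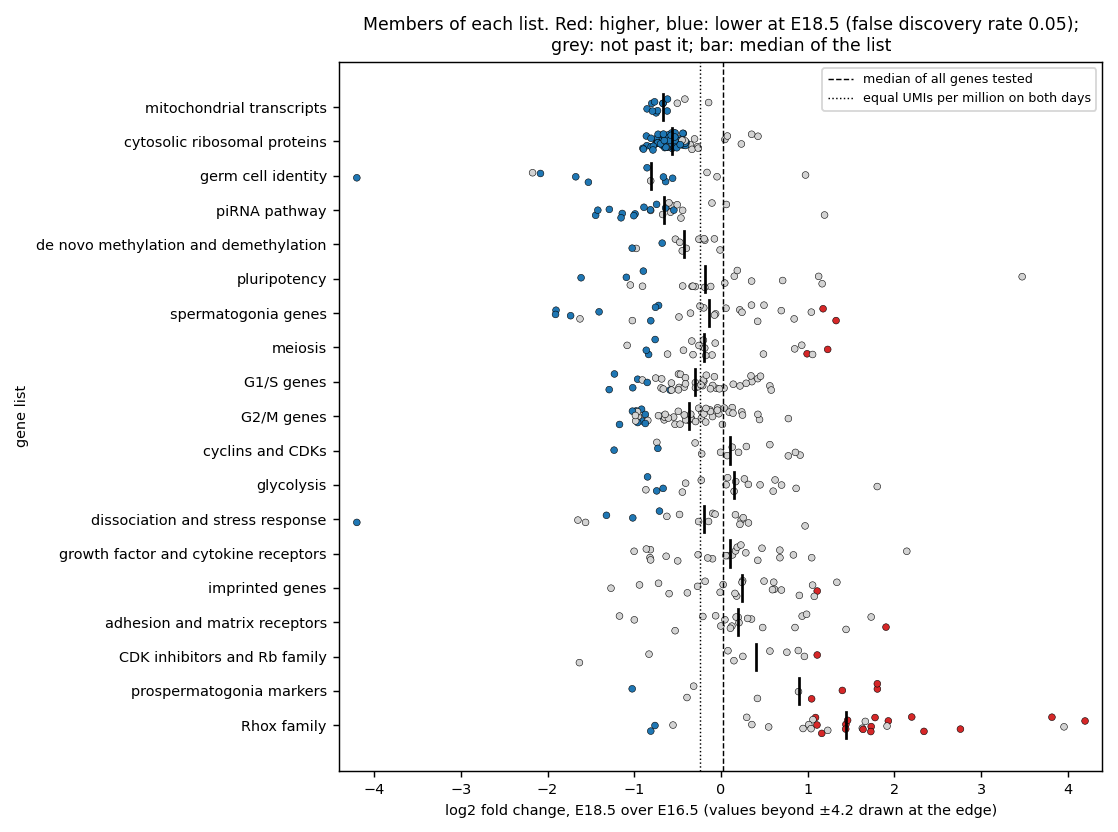
Log2 fold change of E18.5 over E16.5 (horizontal axis) for every tested member of 19 gene lists, red and blue where it passed a false discovery rate of 0.05. Mitochondrial, ribosomal, germ cell and piRNA lists lie left of the median of all genes (dashed line) and the Rhox family and prospermatogonia markers right of it, and the dotted line marks equal CPM.

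Signs of quiescence were not uniform. Of 10 CDK inhibitors and Rb family genes, Cdkn1c, which codes for p57, rose, at 98.8 and 68.7 CPM at E16.5 and 218 and 209.9 CPM at E18.5 (log2 fold change 1.11, standard error 0.21, adjusted p = 0.0142). Cdkn1b, which codes for p27, was at 17.4 and 16.7 CPM at E16.5 and 41.8 and 33.2 CPM at E18.5 (log2 fold change 0.89 (adjusted p = 0.0965)) and passed with library size alone. Of 43 G1/S genes 6 fell and 0 rose (median -0.29), and of 53 G2/M genes 9 fell and 0 rose (median -0.37). Among all genes tested 5.12% fell. With library size alone 2 and 4 fell and 0 and 2 rose. Rrm1, a subunit of ribonucleotide reductase, was at 105.6 and 132.98 CPM at E16.5 and 69.9 and 45.5 CPM at E18.5 (log2 fold change -1.29 (adjusted p = 0.0183)). Cdc20, an activator of the anaphase-promoting complex, was at 153 and 168 CPM at E16.5 and 90.3 and 105.05 CPM at E18.5 (log2 fold change -0.96 (adjusted p = 0.0145)). Rrm1, Cdc20 and the cyclin gene Ccnb1 had higher means in Negative cells, 181.9, 191.5 and 284 CPM at E16.5. Their Negative means at E18.5 were lower too, 93.2, 141.4 and 221 CPM. Mki67 gave a log2 fold change of 0.24 (adjusted p = 0.865), and its pools overlapped. Without replicate 2 of E16.5 the G1/S falls numbered 1 and the G2/M falls 3, and the calls of Cdkn1c, Rrm1 and Cdc20 were lost. Among 14 cyclins and CDKs, Ccnb1 and Ccnb3, cyclins of mitosis and meiosis, changed by -0.73 (adjusted p = 0.0333) and -1.23 (adjusted p = 0.0289), and neither call was kept with library size alone, in the fit of all days, without replicate 2 of E16.5 or without replicate 2 of E18.5.

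Spermatogonial genes did not move as a group. Of 26 tested, 2 rose and 7 fell (median -0.14), and 3 rose and 3 fell with library size alone, 1 and 3 in the fit of all days, and 4 fell without replicate 2 of E16.5. Sdc4, a membrane proteoglycan, was at 448 and 474 CPM at E16.5 and 126.3 and 165 CPM at E18.5 (log2 fold change -1.91, standard error 0.16, adjusted p = 0.00143). Nefm, a neurofilament subunit, was at 39.1 and 46.6 CPM at E16.5 and 104.4 and 151 CPM at E18.5 (log2 fold change 1.33, standard error 0.24, adjusted p = 0.0133) and Upp1, uridine phosphorylase, at 23.7 and 22.7 CPM at E16.5 and 65.3 and 58.9 CPM at E18.5 (log2 fold change 1.18, standard error 0.26, adjusted p = 0.0243). For Sdc4 both E16.5 pools, and for Nefm and Upp1 both E18.5 pools, were the higher ones, as pools did not overlap for 55.7% of all genes tested. Lin28a, an RNA-binding protein of undifferentiated cells, was at 17.6 and 29.5 CPM at E16.5 and 6.7 and 10.1 CPM at E18.5 (log2 fold change -1.73 (adjusted p = 0.0309)), and the call was lost without replicate 2 of E16.5, without replicate 1 of E18.5 and with library size alone. The stem cell genes Etv5 and Gfra1 were low at both days, at 6.51 and 7.52 CPM at E16.5 and 8.01 and 6.46 CPM at E18.5 and 0.0449 and 1.62 CPM at E16.5 and 0.531 and 1.53 CPM at E18.5.

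Meiotic genes also went both ways, with 2 of 20 higher and 3 lower, where 3.08% of all genes rose and 5.12% fell. Syce2 and Syce3, central element proteins of the synaptonemal complex, were at 65.9 and 67.3 CPM at E16.5 and 142.7 and 172 CPM at E18.5 (0.99 (adjusted p = 0.0169)) and 29.3 and 59.9 CPM at E16.5 and 111.1 and 137.004 CPM at E18.5 (1.23 (adjusted p = 0.0437)), and Syce1, another central element protein, at 173 and 161 CPM at E16.5 and 108.4 and 109.8 CPM at E18.5 (-0.86 (adjusted p = 0.0174)). Sycp1, the transverse filament, changed by -0.83 (adjusted p = 0.0154) and Sycp2, an axis protein, by -0.76 (adjusted p = 0.0484). With library size alone the 3 falls were lost and 2 rises were called. Without replicate 2 of E16.5 the calls of Syce2 and Sycp1 were lost, without replicate 1 of E16.5 those of Syce1 and Syce3, and without replicate 2 of E18.5 that of Syce3.

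Of 24 growth factor and cytokine receptors and 10 Nodal pathway genes tested, 0 were called in either direction, and of 21 adhesion and matrix receptors 1 rose (Alcam, a cell adhesion molecule, at 6.64 and 4.45 CPM at E16.5 and 20.9 and 28.3 CPM at E18.5, lost without replicate 2 of E16.5). Among all genes tested 3.08% rose and 5.12% fell. At an unadjusted p under 0.05 stood 5 receptors and 1 Nodal gene. DESeq2 called 0 higher and 1 lower, 1 higher and 0 lower, and 1 higher and 1 lower in these 3 lists. Among 23 imprinted genes 1 rose (Cdkn1c) and 0 fell, where 3.08% of all genes rose. The rises numbered 3 with library size alone, 5 with DESeq2 (which also called 2 falls), 0 without replicate 2 of E16.5, 2 without replicate 2 of E18.5 and 5 without replicate 1 of E18.5. Among 18 genes of dissociation and stress 4 fell and 0 rose: Hspa1b, an inducible heat shock protein, had 256 and 254 UMIs at E16.5 and 5 and 22 at E18.5, Jund, an AP-1 factor, changed by -1.32 (adjusted p = 0.00726), Hspa8, the constitutive heat shock protein, by -1.02 (adjusted p = 0.00508) and Dnajb1, its cochaperone, by -0.71 (adjusted p = 0.0244). The call of Dnajb1 was lost without replicate 1 of E16.5, without replicate 2 of E16.5 and with library size alone. The immediate early genes Fos and Jun were at 26.5 and 48.5 CPM at E16.5 and 10.4 and 47.4 CPM at E18.5 and 20.8 and 12.1 CPM at E16.5 and 9.27 and 37.5 CPM at E18.5, and for both the pools of the 2 days overlapped.

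The leading falls were genes of varied known roles. Tmc2, on chromosome 2 from 130195194 to 130264445, was at 259 and 306 CPM at E16.5 and 9.52 and 11.3 CPM at E18.5 (log2 fold change -5.01, standard error 0.21, adjusted p = 1.34e-05), and 56.9 and 56.9 CPM at E17.5. Ctns, the lysosomal cystine transporter, and Tpp1, a lysosomal peptidase, were at 74 and 90.5 CPM at E16.5 and 16.7 and 12.7 CPM at E18.5 (-2.72 (adjusted p = 0.00251)) and 180.1 and 151 CPM at E16.5 and 41.8 and 41.1 CPM at E18.5 (-2.24 (adjusted p = 0.00143)). Catsperd, a subunit of a sperm calcium channel, was at 56.3 and 78.3 CPM at E16.5 and 10.3 and 11.5 CPM at E18.5 (-2.87 (adjusted p = 0.00251)). Elp4, a subunit of the Elongator complex, was at 94 and 88.2 CPM at E16.5 and 23.7 and 21.9 CPM at E18.5 (-2.24 (adjusted p = 0.00252)). Hsd17b2, which inactivates sex steroids, was at 68.4 and 47.6 CPM at E16.5 and 13.8 and 11.6 CPM at E18.5 (-2.43 (adjusted p = 0.00399)). The other leading falls were 2610524H06Rik, 2010005H15Rik, 2310043M15Rik, 4930558C23Rik, Gm15389, Gm12589, Gm12735, Tmem2 and Ifi27l2a, from -3.97 to -2.27 on the log2 scale. All 15 kept their calls when any 1 pool was left out, and that of Gm12735 was lost in the fit of all days.

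Genes that were higher in the Negative than in the BVSC cells on the day of their high level also changed. Vim, the intermediate filament of mesenchyme, was at 46 and 28 CPM at E16.5 and 124.2 and 103.7 CPM at E18.5 (log2 fold change 1.38, standard error 0.28, adjusted p = 0.019) in BVSC cells and 518 and 526 CPM at E16.5 and 701 and 508 CPM at E18.5 in Negative cells. Lmna, lamin A, was at 37.4 and 28.8 CPM at E16.5 and 127.5 and 102.3 CPM at E18.5 (1.55 (adjusted p = 0.00829)), and Hmgn5, a nucleosome-binding protein, at 11.9 and 9.18 CPM at E16.5 and 47.2 and 81.4 CPM at E18.5 (2.37 (adjusted p = 0.00613)). Prr13 and S100a1 rose by 1.95 and 1.64. Falls in this class were the interferon-induced membrane proteins Ifitm2, at 246 and 334 CPM at E16.5 and 39.3 and 71 CPM at E18.5 (log2 fold change -2.64, standard error 0.28, adjusted p = 0.00251), and Ifitm1, at 38.5 and 74 CPM at E16.5 and 5.72 and 7.08 CPM at E18.5 (-3.38 (adjusted p = 0.00282)), and Ifi27, Arl2 and Rpl36a-ps1, by -1.36, -1.49 and -1.37. Without replicate 2 of E16.5 the calls of Vim, Prr13 and S100a1 were lost, and without replicate 2 of E18.5 that of Prr13. In the fit of all days those of Vim, Lmna and S100a1 were lost.

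Markers of other cells are given beside these results. The 15 Sertoli cell markers summed to 342 and 175 CPM at E16.5 and 252 and 367 CPM at E18.5 in BVSC cells, and 0 of 15 were called by edgeR or DESeq2, with 1 at an unadjusted p under 0.05. Interstitial and peritubular markers summed to 168 and 89.5 CPM and then 241 and 219 CPM, with 1 of 11 higher (Acta2, smooth muscle actin, at 15.8 and 7.2 CPM at E16.5 and 53.7 and 45.3 CPM at E18.5), a call lost without replicate 2 of E16.5. Log2 fold changes were above 0 for 11 of the 15 Sertoli cell markers (median 0.63) and 9 of the 11 interstitial and peritubular markers (median 0.79). Of the 8 macrophage markers 7 were below 0 (median -3.14), and the median of all genes was 0.03. Macrophage markers summed to 12.7 and 85.7 CPM and then 14.2 and 2.83 CPM. C1qb, a complement subunit and the 1 of 8 called lower, had 14 and 286 UMIs at E16.5 and 0 and 1 at E18.5, and its call was lost without replicate 2 of E16.5. In Negative cells the sums for Sertoli cells were 4534 and 1690 CPM at E16.5 and 627 and 1948 CPM at E18.5. The part of RNA from these cells in the changes above was not tested. Without the 8 cells with at least 1000 CPM of Leydig cell markers, 2188 genes were called, among them 1760 of the 1762 calls. This cannot show the effect of Leydig transcripts spread over a library. Cyp17a1 was counted in 94 of 95 cells of replicate 1 of E16.5 (median 86.9 CPM) and 71 of 71 cells of replicate 2 of E18.5 (median 175.9 CPM).

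Whether the change between the days differed between the gates was tested as an interaction over 8 pools. It was called for 1 of 21277 genes (0.0047%), Krt7, a keratin. In Negative cells alone 0 of 13349 genes were called between the days, with 897 at an unadjusted p under 0.05 and 151 called by DESeq2. Dnd1 in Negative cells was at 54.9 and 16.6 CPM at E16.5 and 2.39 and 25.2 CPM at E18.5. The interaction of Dnd1 was -0.81, standard error 1.08, adjusted p = 0.856, and that of Rhox9 was -0.70, standard error 1.02, adjusted p = 0.876. For Hbb-bt it was 6.67, standard error 0.90, adjusted p = 0.0901, and for Ifitm2 it was -2.97, standard error 0.49, adjusted p = 0.135. DESeq2 called the interaction for 424 genes higher and 196 lower. The Negative pools of E16.5 had little Rhox9, 0.451 and 0.137 CPM, and 1 Negative cell of replicate 1 reached 593.8 CPM of Dnd1. For such genes the Negative side rests on few germ cell transcripts, so the interaction cannot decide whether a change is limited to a gate. By edgeR's test none of the changes named above is shown to be limited to the BVSC cells.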

How the data were processed

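The authors sequenced single cells by a modified STRT-seq, which reads 3′ ends with a cell barcode and a UMI. Per their methods and the submitters' processing notes, barcodes were extracted with UMI-tools and reads mapped to mm10 with STAR. Per the methods, featureCounts assigned the reads to genes, and UMI-tools removed PCR duplicates and counted UMIs. The deposited table holds these counts per cell, without normalization, for 31053 genes. The sum and the gene number of each of the 1152 cells read equalled the table of cells. The labels of the 147 libraries name no group, and day, genotype, gate and replicate came from that table instead.

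Counts were summed per day, gate and replicate and given per 1000000 UMIs (CPM). Of 18 pools of E14.5 to E18.5, the 4 compared held 22277443 to 27539281 UMIs. Tests were edgeR's quasi-likelihood tests (edgeR 4.0.16, limma 3.58.1, R 4.3.3) with TMM, filterByExpr and Benjamini-Hochberg adjustment over all genes tested. With 2 pools per day a permutation of pools cannot pass 0.05. In data simulated for this comparison over 20657 genes, 37 of 50 genes raised 4-fold, 21 of 50 lowered 4-fold, 5 of 50 raised 2-fold and 1 of 50 lowered 2-fold were called, with 7 false calls among 71. A 2-fold change was thus often missed in the simulation. It changed only 200 genes, whereas 8.2% of genes were called in the pools, so that its adjusted threshold was the stricter. Its shares therefore do not carry over to the pools, where 510 of the 1101 falls called reached 2-fold. Intervals and limits of 0 cover counting error only. No doublet caller was run on these singly sorted cells.

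Named were the 15 strongest rises and 15 strongest falls that passed, had non-overlapping pools, reached an average abundance of 5 (log2 CPM) and were more abundant in BVSC than in Negative cells on their high day. To these came 5 and 5 with Negative cells higher, up to 4 called members per list, and 17 markers. Alas2, Amh, Asz1, Dnmt3c, Fos, Hba-a1, Hba-a2, Jun, Krt7, Mov10l1, Nefm, Piwil2, Rhox4a, Rhox4d, Rhox4g, Rhox5, Rhox10, Rhox11, Rhox13, Sycp2, Tet1 and Upp1 fall outside this rule and were chosen after their values were seen. Members and lists were chosen with earlier results of these data known. Coordinates are from GENCODE M21, another release than the one used for the counts, and promoter sequences from RefSeq on GRCm38.p6. Alternatives changed normalization (also with DESeq2 1.42.0), filters, cells, pools, parts, blocks and thresholds. Some genes are not reported here.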

Additional observations from a re-analysis of the deposited data

Results flagged for a closer look

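Krt7, a keratin of simple epithelia, was higher at E18.5 in both BVSC pools and lower in both Negative pools, and the test of that difference between the gates passed the threshold. In BVSC cells it was at 26.3 and 18.3 CPM at E16.5 and 83.8 and 71.4 CPM at E18.5 (log2 fold change 1.55, standard error 0.28, adjusted p = 0.0120). In Negative cells it was at 86.3 and 114.97 CPM at E16.5 and 3.41 and 2.85 CPM at E18.5. The difference of the 2 changes was 6.54 on the log2 scale, with a standard error of 0.67 and an adjusted p of 0.0461 in edgeR's test, and no gene was called when any replicate was left out. The Negative pools held 48 and 48 cells at E16.5 and 24 and 22 cells at E18.5, and whether their makeup moved this value was not tested. Krt7 was chosen after its values were seen.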

How the results depend on the processing

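Among the genes named by the rule, only Cyp17a1 changed sign where a call was made: it was called lower (-6.45) without replicate 2 of E18.5 and higher (4.34) without replicate 1 of E16.5. The shares of tested genes that rose and fell, 3.08% and 5.12%, moved with the design. They were 6.52% and 8.65% with DESeq2 (1402 and 1860 genes), 5.15% and 7.05% with no filter (1378 and 1887), 0.536% and 2.31% with all BVSC pools of E14.5 to E18.5 in 1 fit, and 0.331% and 1.79% (76 and 411) with replicate 1 of E17.5 kept there. With only the proximal, central or distal cells of E16.5 they were 1.31% and 2.31%, 2.00% and 3.33%, and 1.70% and 3.50%. With at least 5 CPM 7.89% rose (1111), with library size alone 5.41% rose and 2.31% fell (1163 and 496), and with at least 2-fold required 2.37% fell (510). Leaving out 1 pool gave 1.72% to 4.23% of rises and 2.71% to 7.23% of falls, the lone pool being assumed to vary like the others.

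Of the list members 29 rose. They were 50 with DESeq2, 52 with no filter, 46 with at least 5 CPM, 16 in the fit of all days (11 with replicate 1 of E17.5), 18 with the proximal part and 45 with library size alone. Their falls, 157 at most and 89 at least when 1 pool was left out, were 60 and 45 in the fits of all days, 74 with the proximal part, 61 with library size alone and 28 with at least 2-fold required. Rises then numbered 22 to 40. Of the 99 named genes called, 73 to 98 calls were made without 1 pool and 61 in the fit of all days with replicate 1 of E17.5 kept.

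With the replicate number as a block 3.98% of genes rose and 6.75% fell (856 and 1451), and no named gene changed its call. With E16.5 replicate 1 paired with E18.5 replicate 2 as the block, 5.17% rose (1112) and 44 list members rose. The days share only the numbers of the replicates: the deviations of same-numbered replicates correlated at -0.025 over all genes tested and at -0.20 over the 6343 genes with an average of at least 5 log2 CPM. The interaction of gate and day was called for 1 gene higher and 0 lower, for 424 and 196 with DESeq2, for 75 and 55 with no filter and for 89 and 32 with the replicate block, and for 0 to 0 without 1 replicate.

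Leaving out every cell with 100 CPM or more of Leydig cell markers left 0 cells in replicate 1 of E16.5 and in replicate 2 of E18.5 and gave no value. The crossed pairing, library size alone, the E17.5 pool kept and the removal of cells with 1000 CPM of Leydig markers were chosen after seeing the data. The cause of these differences was not tested.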
